A study of Arabidopsis thaliana with 8 samples.

Results

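The histone genes of Arabidopsis are described here, as a set of 41 locus tags for H1, H2A, H2B, H3 and H4 that was listed by histone family. Of the 41 genes, 40 had a probe on the array, read by 62 of the 43603 gene probes, and AT3G53650, an H2B gene, had no probe matched to it. All 62 probes were well above background on all 8 arrays, and all 62 were among the 31264 probes tested. The genes fall into 27 replication-dependent genes (8 for H4, 5 for H3.1, 4 for H2A and 10 for H2B, 26 of these 27 with a probe), 7 genes for replacement variants (3 for H3.3, 3 for H2A.Z and 1 for H1.3), and 7 genes kept apart from both (2 for H2A.X, 3 for H2A.W, H1.1 and H1.2).

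Histones package DNA into nucleosomes, in which DNA is wound around a core of H2A, H2B, H3 and H4, and linker histones of the H1 family bind where the DNA enters and leaves that core. Replication-dependent histones are made mainly in S phase, when the copied DNA needs new nucleosomes, so their transcripts are used as a sign of cells that copy their DNA. Replacement variants are made throughout the cell cycle and enter chromatin outside replication: H3.3 is found over transcribed genes, H2A.Z next to transcription start sites, and H1.3 is a linker histone of Arabidopsis known to be induced by drought and by abscisic acid (ABA), the stress hormone that closes stomata. In plants, unlike in animals, the messages of replication-dependent histones carry poly(A) tails.

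RNA of whole seedlings, roots and shoots together, was hybridized in 1 colour (Cy3), 1 sample per array, to Agilent Arabidopsis oligonucleotide arrays. The plants were 4 weeks old and were either T3 homozygous lines of Columbia overexpressing ThbZIP1 (OE), a bZIP transcription factor gene of the salt-tolerant shrub Tamarix hispida, or the wild type Columbia (WT). Each genotype was harvested after 3 h with water or with 10 µM ABA, and each of the 4 groups (WT in water, WT under ABA, OE in water, OE under ABA) held n = 2 arrays, which the paper's methods call biological replications. The paper's methods state that the Arabidopsis seedlings harvested for a treatment were split into 3 portions, each taken as a biological replicate. Where the 2 arrays of a group are such portions, the p-values below cover the spread within 1 harvest and not between plantings. Seedlings were pooled for each treatment, and the promoter that drives the transgene and the number of lines are not given in the sources used here. No probe for ThbZIP1 was used, so the overexpression itself was not checked. The groups follow the titles, genotype and treatment labels. A separate description field disagrees with them on all 8 arrays: it names AtbHLH112 plants on the OE water arrays, AtbHLH112 plants given NaCl on the WT arrays with ABA, a SALK insertion line on the WT water arrays, and water-irrigated wild type on the OE arrays with ABA. The OE arrays shared a slide, a scan day and a version of the array design that no WT array had, so that genotype cannot be told apart from slide, scan day and design version. Both arrays of WT in water shared a slide, and the arrays of WT under ABA lay on a slide each.

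The arrays had 68.1 to 72.1% of probes well above background, and the 2 arrays of a group correlated at r = 0.979 to 0.986 across all probes. WT in water replicate 1 stood apart with 1148 spots flagged as outliers, against 6 to 24 on the other arrays. That array lacked a value for 4 of the 62 histone probes, which include the brightest probes of AT1G06760 (H1.1), AT4G40040 (H3.3) and AT5G02570 (H2B), and these 3 genes have 1 value in that group. Where counts below say that both arrays of a group lay above or below both of another, a lone value stands for its group. No probe of a histone gene was saturated. Values are log2 signals relative to the 75th percentile of the same array, which compare 1 probe between arrays and never 2 probes with each other. A gene is given by its brightest probe, and a change counts as called where limma's p, adjusted by Benjamini-Hochberg over all probes tested, was under 0.05 and the fold was at least 2. Shares over all probes count every probe tested, the dimmer ones of a gene included, and so differ in unit from the counts of histone genes.

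In water, 14 of 40 histone genes were higher in OE than in WT and 1 was lower. Of all probes tested, 19% were called in this comparison, 8.45% higher and 10.6% lower. The mean was higher in OE for 36 of 40 genes and for 15372 of the 31264 probes tested. Both OE arrays lay above both WT arrays for 35 of 40 genes and below them for 2, which 35.6% and 37.6% of all probes did. The median log2 fold change was 0.73 over the 40 genes and -0.02 over all probes tested. By the brightest probe of each of 19475 genes the median was 0.06, with 1922 called higher and 1823 lower. Both OE arrays lay above both WT arrays for 7872 of these 19475 and below them for 6674. Of the 14 higher genes, 11 were replication-dependent (11 of 26, median log2 fold change 0.92), 2 were H2A.Z genes among the 7 replacement variants (median 0.37), and 1 was an H2A.W gene. In bulk RNA of whole seedlings, a higher share of cells that make a histone and more histone RNA per cell cannot be told apart.

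All 5 genes of H3.1, the H3 form that is built in at replication, rose in OE in water. For AT5G10400, which showed the largest change of the 5, the log2 levels were 1.72 and 1.5 in WT and 2.79 and 3.35 in OE, a log2 fold change of 1.46 (SE 0.26, limma adjusted p = 0.0126). AT5G65360, the gene at the median of its class, gave 2.44 and 2.68 in WT and 3.54 and 4.06 in OE, 1.23 on the log2 scale (SE 0.26, limma adjusted p = 0.0183). The lowest OE array was thus above the highest WT array for both, and the same held for all 5 genes. The other three, AT5G10390, AT1G09200 and AT3G27360, had log2 fold changes of 1.3, 1.17 and 1.06. AT1G09200 has a second, dimmer probe that showed a log2 fold change of 0.04 (SE 0.28), so its 2 probes disagree on the call. AT5G10390 and AT5G10400 lie next to each other in the reference gene table (TAIR10.1), with no gene between them. The H3.1 genes are near-identical copies, and so are the H4 genes. The probe sequences were not used here, so how far a probe also reads the RNA of its sister genes was not tested, and the values of these copies should not be counted as separate pieces of evidence.

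Of the 8 genes of H4, the partner of H3 in the nucleosome core, 4 rose in OE in water, with a class median of 1.03 on the log2 scale. AT3G46320 had levels of 0.81 and 1.05 in WT and 2.03 and 2.54 in OE (log2 fold change 1.35, SE 0.25, limma adjusted p = 0.0135). AT3G53730 had levels of 2.66 and 2.84 in WT and 3.89 and 4.17 in OE (1.28, SE 0.17, limma adjusted p = 0.00578). Both OE arrays were above both WT arrays for 7 of the 8 genes. AT3G45930 and AT5G59970 were also called, at 1.14 and 1.13. HIS4, AT5G59690 and AT1G07820 passed the adjusted p but not the 2-fold threshold, at 0.93 (SE 0.20, limma adjusted p = 0.0211), 0.86 and 0.64. AT1G07660 was the exception, with 1.22 and 1.19 in WT and 1.02 and 1.2 in OE, so that its groups overlapped and its log2 fold change was -0.09 (SE 0.17, limma adjusted p = 0.706).

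Among the 4 canonical H2A genes, HTA10 showed the largest change of any histone gene in this comparison. Its log2 levels were 0.39 and 0.65 in WT in water and 2.17 and 2.37 in OE in water, a difference of 1.75 (SE 0.16, limma adjusted p = 0.00271), or 3.36-fold. The gap between the groups was several times the spread within either. HTA2 passed the adjusted p without reaching 2-fold (0.68, SE 0.16, limma adjusted p = 0.0268). HTA13 (0.55, SE 0.27) and RAT5 (0.33, SE 0.19), an H2A gene known for its part in the integration of Agrobacterium T-DNA, did not pass.

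Of the 9 measured genes of H2B, the partner of H2A, 1 rose and 1 fell. HTB2 rose, from 1.67 and 1.76 in WT to 2.77 and 3.19 in OE (log2 fold change 1.26, SE 0.20, limma adjusted p = 0.00899). HTB1 missed the 2-fold threshold by its brightest probe (0.97, SE 0.27, limma adjusted p = 0.0415) and passed it by its second probe (1.21, SE 0.25, limma adjusted p = 0.019). AT2G37470, at the class median, had a log2 fold change of 0.70 (SE 0.23, limma adjusted p = 0.068). AT5G02570 was the only histone gene called lower, at -1.13 (SE 0.28, limma adjusted p = 0.0366), from 1 WT value of -1.83 and OE values of -3.12 and -2.78. It is thus measured on 1 array of WT in water, and the call was lost under 9 of 15 alternatives of the analysis that gave it a value. AT5G02570 is the direct neighbour of the H2A.W gene HTA12 in the reference gene table, and whether their transcripts share reads of a probe was not tested.

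**Figure D1:**
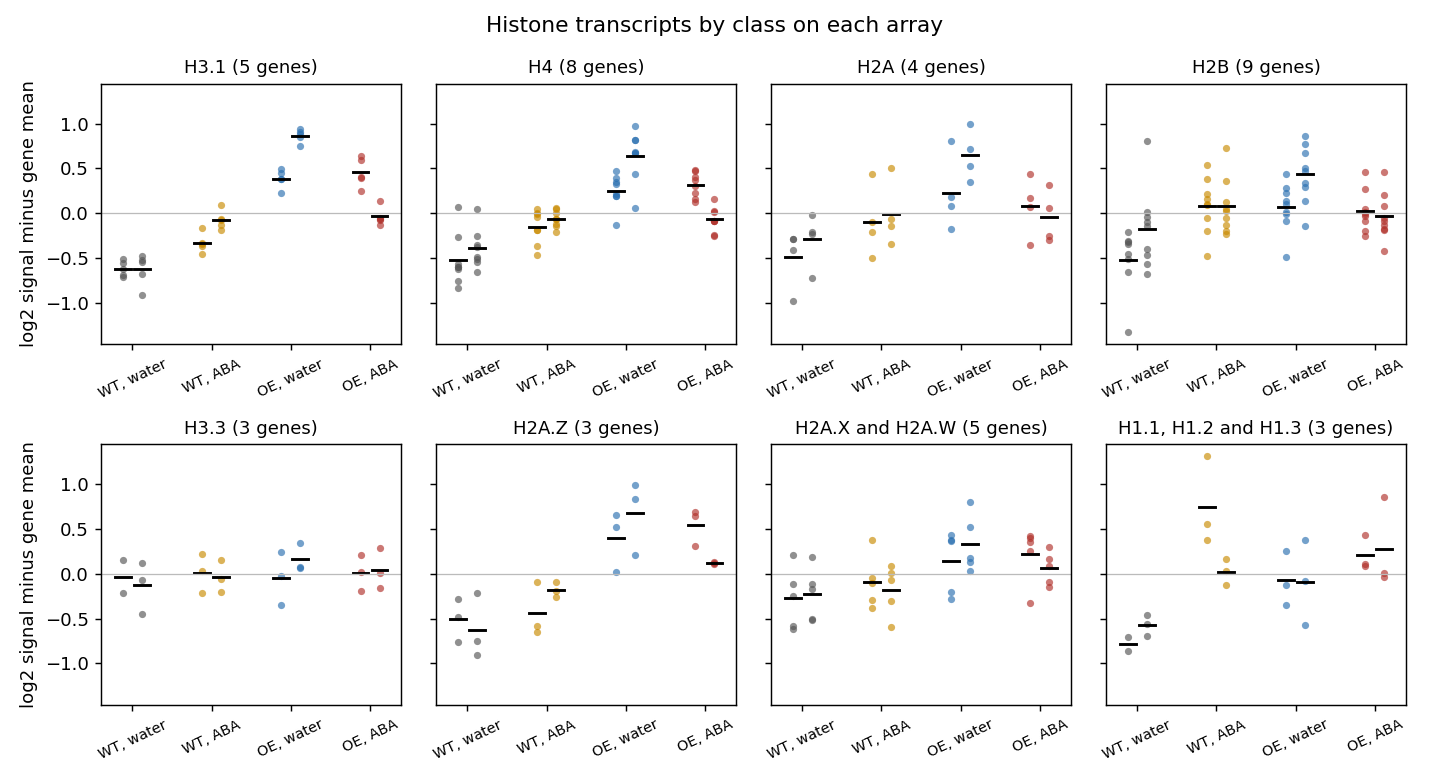
Log2 signal of each histone gene minus its own mean over the arrays (y axis) on each of the 8 arrays, by group (x axis) and class. Points are genes and black bars are class means of 1 array. The H3.1 means run from -0.63 and -0.62 in WT in water to 0.38 and 0.86 in OE in water, while the H3.3 means stay between -0.13 and 0.16 on all arrays.

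Among the replacement variants, 0 of 3 H3.3 genes were called in water. AT4G40030 had levels of 3.86 and 3.63 in WT and 4.32 and 4.42 in OE (0.63, SE 0.14, limma adjusted p = 0.021, below 2-fold). AT4G40040 had 4.97 in WT and 5.01 and 5.11 in OE (0.09, SE 0.16, limma adjusted p = 0.705), and both OE arrays were above that value. AT5G10980 had 4.45 and 4.42 in WT and 3.95 and 4.36 in OE (-0.28, SE 0.17, limma adjusted p = 0.238). Here both OE arrays lay below both WT arrays. The 2 dimmer probes of AT4G40030 gave 0.44 and 0.11, neither called. The second probe of AT4G40040, with a value on every array, gave 0.34 (SE 0.16, limma adjusted p = 0.162), with both OE arrays above both WT arrays. For AT5G10980 the second probe gave -0.09 (SE 0.19), with overlapping arrays. AT4G40030 and AT4G40040 are direct neighbours in the reference gene table. H3.3 differs from H3.1 by only a few residues, so reading across between them is as open as among the copies of H3.1.

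Of the 3 H2A.Z genes, 2 rose. HTA11 rose from 0.70 and 0.55 in WT to 2.12 and 2.45 in OE (log2 fold change 1.66, SE 0.25, limma adjusted p = 0.00849), second among all histone genes only to HTA10. HTA8 rose from -1.93 and -2.20 to -0.93 and -0.62 (1.29, SE 0.25, limma adjusted p = 0.0151). HTA9, the third H2A.Z gene, had 4.36 and 4.42 in WT and 4.66 and 4.85 in OE, with a log2 fold change of 0.37 (SE 0.14, limma adjusted p = 0.0942) that did not pass. The third kind of replacement variant, H1.3 (HIS1-3), had -1.67 and -1.5 in WT and -1.15 and -1.38 in OE (0.32, SE 0.46, limma adjusted p = 0.62).

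Of the 7 genes outside both kinds, only HTA6 was called, 1 of the 3 genes of H2A.W, the H2A form of plant heterochromatin. HTA6 rose from 2.06 and 2.17 to 3.11 and 3.48 (log2 fold change 1.18, SE 0.21, limma adjusted p = 0.0118). The other H2A.W genes, HTA7 and HTA12, had log2 fold changes of 0.51 (limma adjusted p = 0.0713) and 0.08 (limma adjusted p = 0.802). For H2A.X, the form that is phosphorylated at DNA breaks, GAMMA-H2AX passed the adjusted p below 2-fold (0.65, SE 0.19, limma adjusted p = 0.0467) and H2AXA did not (-0.02, SE 0.16), with a different sign in 1 of its dimmer probes (0.06). The main linker histones had log2 fold changes of 0.90 for H1.2 (AT2G30620, SE 0.17, limma adjusted p = 0.0153) and 0.46 for H1.1 (AT1G06760, SE 0.22, limma adjusted p = 0.17).

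**Figure D2:**
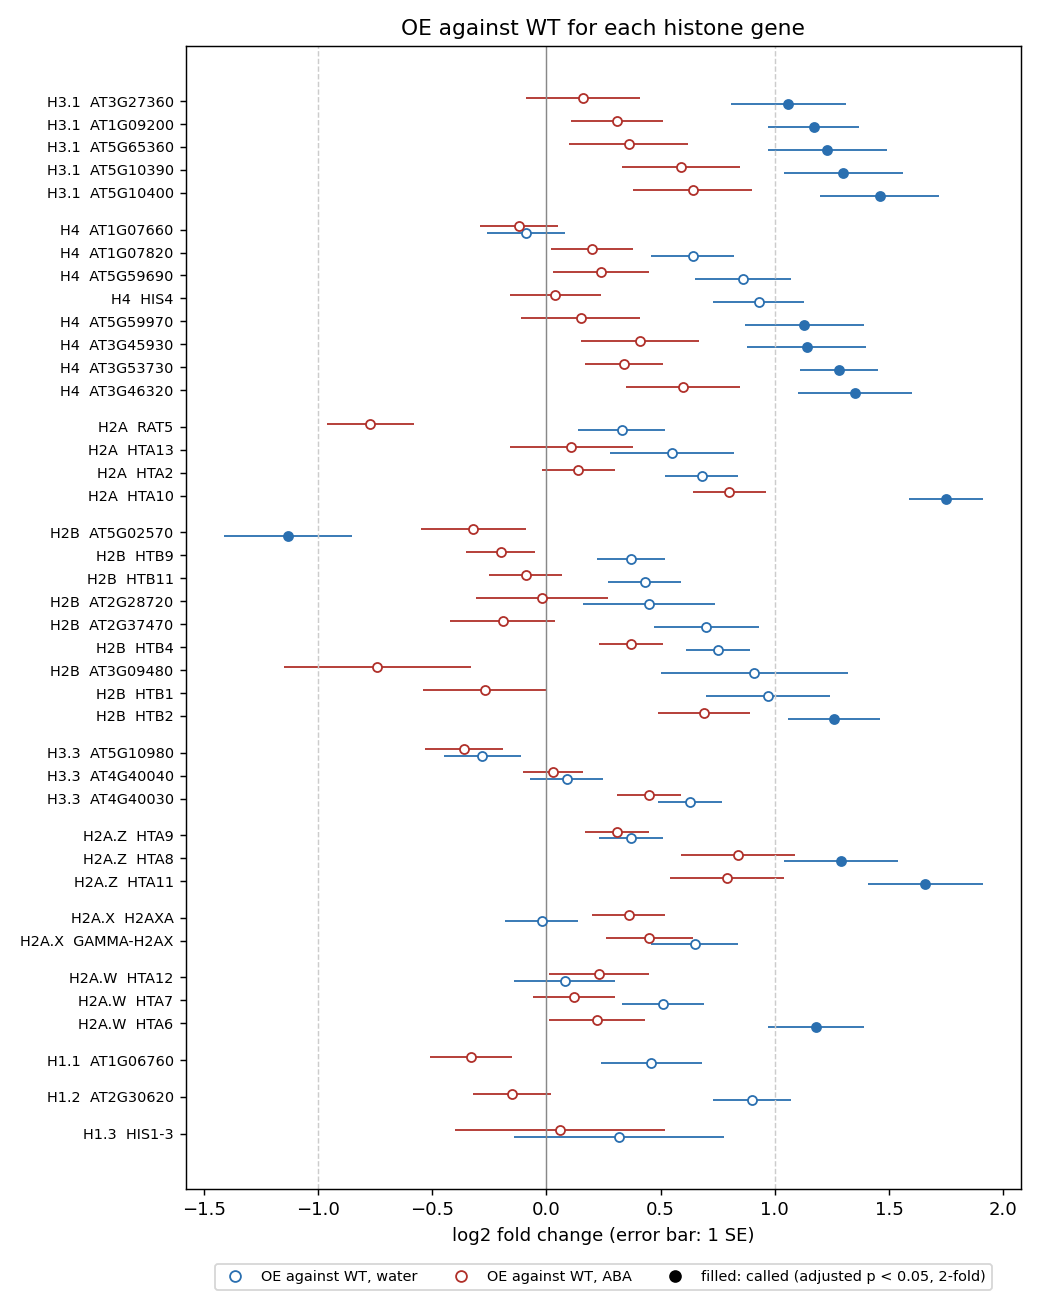
Log2 fold change of OE against WT (x axis, error bar 1 SE) for each of the 40 histone genes by class (y axis), in water (blue) and under ABA (red). Filled points were called, which 15 genes were in water and 0 under ABA, and the dashed lines mark 2-fold.

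The count in water rested in part on single arrays. Without OE in water replicate 2, on which most core histone transcripts were higher than on replicate 1, 3 of the 14 genes were still called higher (HTA10, HTB2 and the H4 gene AT3G53730). Without WT in water replicate 1, 8 of the 14 were, and without WT in water replicate 2, 7 were. For all 14 genes both OE arrays lay above both WT arrays, so leaving out 1 array could change the size of the difference but not its direction. The lowest log2 fold change among the 14 genes was 0.80 without OE in water replicate 2. The median of the replication-dependent genes was between 0.64 and 1.18 over the 8 fits that left out 1 array. By the methods' t-test at an unadjusted p under 0.05 and 2-fold, 4 genes were higher, and 0 after Benjamini-Hochberg adjustment.

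Genes of DNA replication and of mitosis that are not histones were also higher in OE in water. Of 15 tested S-phase genes (of 16 listed), 12 were called higher and 0 lower, with a median log2 fold change of 1.2. Of 13 genes of mitosis, 13 were called higher, with a median of 2.65. Of a list of 19 histone chaperones, assembly factors and chromatin remodellers, 1 was called higher (median 0.20), the remodeller CHR1 (log2 fold change 2). With CHR1, 4 of the 19 passed limma's adjusted p, which 9726 of the 31264 probes tested did. The mean was higher in OE for 13 of the 19 and lower for 6. Of 4 genes of the E2F and RBR regulators of S phase entry 0 were called (median -0.07), with a higher mean in OE for 1 and a lower mean for 3. E2F1 was the lowest of these, at -1, and 1 of the 4 passed limma's adjusted p without being called. The summed level of the S-phase list was 10.4 to 12.2 times the 75th percentile in WT in water and 24.6 to 32.3 in OE in water, and that of the mitosis list 1.52 to 2.48 and 12.6 to 14.4. Each of these lists lacked 1 value over the 8 arrays, which the sum of that array leaves out. The part of cells that copy their DNA or divide in the histone values was not tested. A further 8 histone genes outside the 41 were listed, of which 4 were below background on all arrays. Of the other 4, HTR12, the centromeric H3, and HTR11 were called higher in water.

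Markers of plant parts were read as well, and few were called. Of the 6 flower markers 0, and of the 8 shoot meristem markers 2, were well above background on all arrays. The medians, means and sums given for these 2 lists thus draw in part on values near background. The summed level of 6 flower markers was 0.336 and 0.0328 on the arrays of WT in water, 0.0891 and 0.0568 in WT under ABA, 1.29 and 2.79 in OE in water and 0.522 and 1.62 in OE under ABA. In water 1 of 5 tested flower markers was called higher (median log2 fold change 3.59), and under ABA 0 were (median 3.95). Of 6 tested shoot meristem markers 0 were called in water (median 2.55) and 1 was called higher under ABA (median 2.35). The mean was higher in OE for 5 of the 6 and lower for 1 in each comparison. The summed level of the list, in which bright probes weigh most, was 3.58 to 5.60 in WT and 4.76 to 6.03 in OE. Its mean log2 level was -6.85 to -4.59 in WT and -3.96 to -2.62 in OE. WUS, which defines the organizing centre of the meristem, was not above background on any array. Of 5 tested root markers 1 was higher and 1 lower in water and 0 were called under ABA, with sums of 1.71 to 1.92 in WT and 1.72 to 3.49 in OE; PLT1, PLT2, PIN2 (EIR1) and RHD6 were not above background on any array. Of 5 leaf markers 0 were called in either comparison, with sums of 647 to 858 in WT and 653 to 866 in OE. The leaf list lacked 1 value over the 8 arrays, which the sum of that array leaves out. The part of these plant parts in the histone values was not tested.

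Under ABA, the same comparison of OE with WT called 0 of 40 histone genes (limma, 7 at an unadjusted p under 0.05), while 10.3% of all probes were called, 3.78% higher and 6.52% lower. Of the 31264 probes tested, 10903 were at an unadjusted p under 0.05 (limma). The median log2 fold change was 0.18 over the 40 genes, 0.16 over the replication-dependent genes and 0.31 over the replacement variants, against 0.02 over all probes. Both OE arrays were above both WT arrays for 16 of 40 genes and below them for 9, which 33% and 32.1% of all probes were. By the brightest probe of each of 19475 genes, 7211 were above and 5631 below, with a median of 0.08. The methods' t-test called 0 of 40, unadjusted or adjusted.

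The 5 H3.1 genes had log2 fold changes of 0.16 to 0.64 and the 8 H4 genes of -0.12 to 0.60, and 7 of the 9 H2B genes had a lower mean in OE, as 15237 of the 31264 probes tested did. No class was tested against another. HTA10 was again the canonical H2A gene with the highest difference, with 0.87 and 1.02 in WT and 1.81 and 1.68 in OE (log2 fold change 0.80, SE 0.16, limma adjusted p = 0.0255, below 2-fold). RAT5 lay on the other side, with -2.68 and -2.61 in WT and -3.47 and -3.37 in OE (-0.77, SE 0.19, limma adjusted p = 0.047, below 2-fold), but its direction turned under normexp background correction (0.38, limma adjusted p = 0.561). These 2 genes were the only ones of the 40 to pass the adjusted p under ABA. The H2A.Z genes HTA8 and HTA11 had values of 0.84 (SE 0.25, limma adjusted p = 0.0705) and 0.79 (SE 0.25, limma adjusted p = 0.0867), with both OE arrays above both WT arrays. HTA9 gave 0.31 (SE 0.14, limma adjusted p = 0.174).

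The remaining replacement variants under ABA had log2 fold changes of 0.45 for AT4G40030 (SE 0.14, limma adjusted p = 0.0744), 0.03 for AT4G40040 (SE 0.13, limma adjusted p = 0.905), -0.36 for AT5G10980 (SE 0.17, limma adjusted p = 0.185) and 0.06 for H1.3 (SE 0.46, limma adjusted p = 0.94). The order of the H3.3 genes was thus the one seen in water. A dimmer probe of AT4G40030 gave -0.29 (SE 0.16), of the other sign. Of the genes of other lists, 4 of 15 S-phase genes were called higher under ABA (median 0.81) and 1 of 13 mitosis genes (median 1.53), with summed levels of 9.27 to 13.8 in WT and 18.5 to 23.7 in OE for S phase, and 2.96 to 4.98 and 8.34 to 16.7 for mitosis. Of the list with the chaperones and of the E2F and RBR genes 0 were called under ABA. In the list with the chaperones, 1 of 19 passed limma's adjusted p, and the mean was higher in OE for 14 and lower for 5. E2F1 was again the lowest of its list, at -0.83, and 1 of the 4 genes passed limma's adjusted p without being called. The mean was higher in OE for 2 of these 4 and lower for 2. Of the 4 tested histone genes outside the 41, AT1G75600, an H3 gene, was called lower (log2 fold change -2.41). In the interaction 0 genes of any of these lists were called.

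No histone gene passed the test of ABA against water in either genotype. The treatment itself was seen in both: of 14 ABA-induced genes, 6 were called higher in WT and 9 in OE. In WT, 0 of 40 histone genes were called (limma, 9 at an unadjusted p under 0.05), where 0.803% of all probes were called, 0.55% higher and 0.253% lower, and the methods' t-test called 0. Of the 31264 probes tested, 5189 were at an unadjusted p under 0.05 (limma). The mean was higher under ABA for 35 of 40 genes and for 14027 of the 31264 probes, with a median log2 fold change of 0.32 against -0.04 over all probes. Both ABA arrays were above both water arrays for 32 of 40 genes and below them for 3, which 21.7% and 30.4% of all probes were. The water arrays of WT differed in the ABA-induced list. Its summed level, in which bright probes weigh most, was 176 on replicate 1 and 57.1 on replicate 2. It was 186 to 207 in WT under ABA, 74.9 to 81.9 in OE in water and 288 to 300 in OE under ABA. The mean log2 level of the list was -0.05 on replicate 1, -0.95 on replicate 2 and 1.81 and 1.9 in WT under ABA. In OE this mean was -1.52 and -1.38 in water and 1.99 and 1.84 under ABA. By the mean log2 level, replicate 1 of WT in water thus lay well below WT under ABA. ABA and water lay on different slides in WT, so that slide and treatment cannot be told apart there.

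In OE, where ABA and water lay on 1 slide, 0 of 40 histone genes were called (limma, 6 at an unadjusted p under 0.05), where 2.04% of all probes were called, 1.7% higher and 0.349% lower, and the methods' t-test called 0. Of the 31264 probes tested, 4792 were at an unadjusted p under 0.05 (limma). Here the mean was lower under ABA for 34 of 40 genes and for 25 of 26 replication-dependent genes, with median log2 fold changes of -0.30 and -0.34. It was lower for 17136 of the 31264 probes, with a median of -0.04. Both ABA arrays were below both water arrays for 13 of 40 genes and above them for 4, which 24.3% and 22.3% of all probes were. The replacement variants had a median of -0.02, which was 0.08 under quantile normalization and 0.07 with the deposited table. The log2 fold changes of the 3 H3.3 genes lay between -0.05 and -0.01 in OE and between 0.05 and 0.12 in WT, with SEs of 0.13 to 0.17, and those in OE were 0.07 to 0.09 under quantile normalization.

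H1.3 had the highest log2 fold change of ABA against water of the 40 genes in both genotypes, though it was not called in either. Its log2 levels were -1.67 and -1.5 in WT in water and 0.51 and -0.93 in WT under ABA, a difference of 1.37 (SE 0.46, limma adjusted p = 0.226). In OE the levels were -1.15 and -1.38 in water and -0.37 and 0.06 under ABA, 1.12 on the log2 scale (SE 0.46, limma adjusted p = 0.326). Both ABA arrays lay above both water arrays in each genotype, but the arrays within WT under ABA were about as far apart as the groups, and neither difference was called. The second probe of H1.3 gave 1.38 in WT and 1.22 in OE, again not called. H1.2, which with H1.1 is the main linker histone of Arabidopsis, had log2 levels of 2.49 and 2.74 in WT in water, 3.58 and 3.23 in WT under ABA, 3.45 and 3.57 in OE in water and 3.31 and 3.21 in OE under ABA. Its log2 fold change of ABA against water was 0.79 in WT (SE 0.17, limma adjusted p = 0.112) and -0.25 in OE (SE 0.17, limma adjusted p = 0.537). H1.1 gave 0.91 in WT (SE 0.22, limma adjusted p = 0.156, 1 water array) and 0.12 in OE (SE 0.18, limma adjusted p = 0.787).

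**Figure D3:**
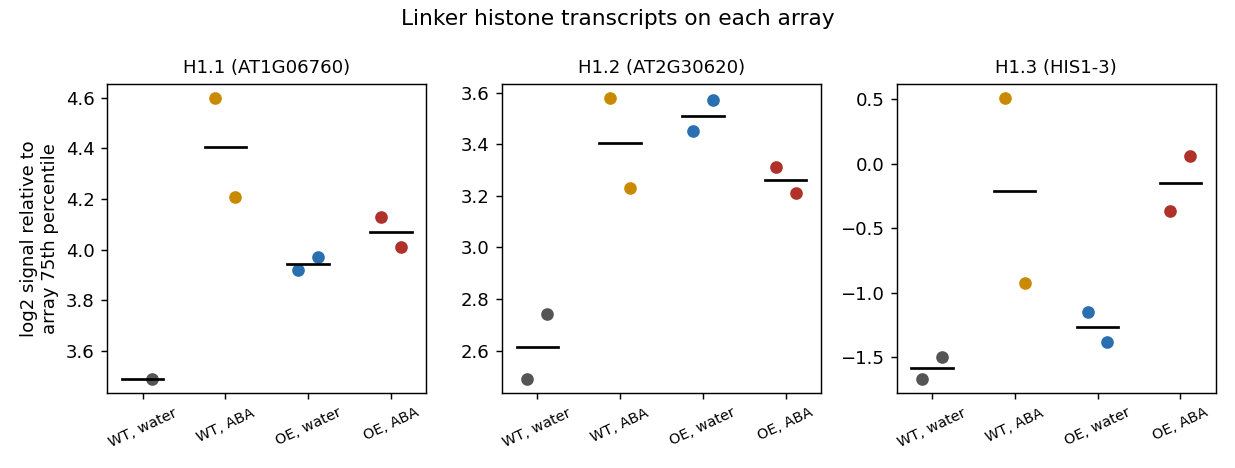
Log2 signal relative to the 75th percentile of each array (y axis, a separate range in each panel) of the 3 linker histone genes, by group (x axis). Points are arrays and bars are group means, and H1.1 has 1 point in WT in water. H1.3 lies between -1.67 and -1.15 on the 4 water arrays and between -0.93 and 0.51 on the 4 ABA arrays.

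For the other replacement variants, ABA against water gave 0.45 in WT and -0.42 in OE for HTA11 (SE 0.25 in both, limma adjusted p = 0.443 and 0.484), 0.16 and -0.29 for HTA8 (limma adjusted p = 0.798 and 0.623), and 0.16 and 0.10 for HTA9 (limma adjusted p = 0.621 and 0.765). Among the replication-dependent genes, the H2B gene AT3G09480 had the widest value in WT at 1.35 (SE 0.41, limma adjusted p = 0.195), with 1 low array in water (-1.18 against 0.05) and 0.69 and 0.88 under ABA. RAT5 gave 0.71 in WT (SE 0.19, limma adjusted p = 0.163) and -0.39 in OE (SE 0.19, limma adjusted p = 0.404), where normexp gave 0.45. The H4 gene AT3G53730 gave 0.69 in WT (SE 0.17, limma adjusted p = 0.138) and -0.25 in OE (SE 0.17, limma adjusted p = 0.53).

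**Figure D4:**
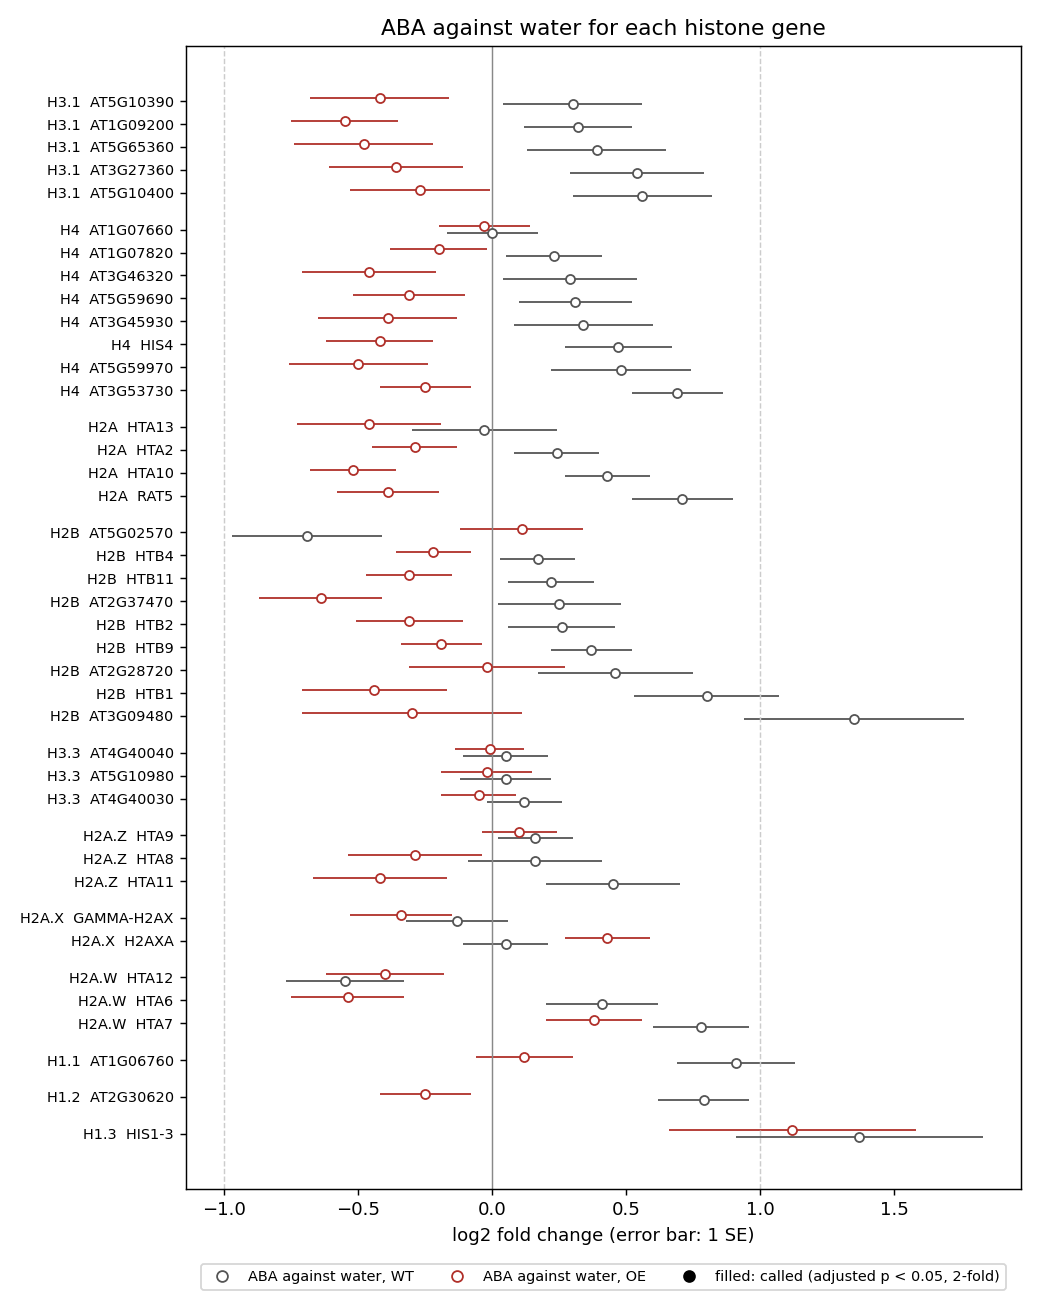
Log2 fold change of ABA against water (x axis, error bar 1 SE) for each of the 40 histone genes by class (y axis), in WT (grey) and in OE (red), with no gene called in either. The mean was higher under ABA for 35 of 40 genes in WT and lower for 34 of 40 in OE, as it was for 14027 and 17136 of the 31264 probes tested. HIS1-3 (H1.3) lies above 1 in both.

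The difference between the genotypes in their ABA response was tested directly as the interaction term. Of the 40 histone genes 0 were called (limma, 14 at an unadjusted p under 0.05), and of all probes tested 0% were called, with 3751 at an unadjusted p under 0.05 and a smallest adjusted p of 0.0953. The interaction was negative for 37 of 40 histone genes and for 14807 of the 31264 probes tested. A negative value means that the difference between OE and WT was smaller, or lay further down, under ABA than in water. The median interaction was -0.74 over the replication-dependent genes (25 of 26 negative), -0.17 over the replacement variants and 0.03 over all probes. The lowest adjusted p among the histone genes was 0.237, for HTA10 (-0.95, SE 0.22) and H1.2 (-1.05, SE 0.25). The genotype difference passing in water and not under ABA is therefore not shown to differ between the treatments for any single histone gene. In WT, the slides differed between ABA and water, so slide cannot be told apart from the WT part of the interaction.

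Within each array, the replication-dependent genes could be set against the replacement variants, which cancels any scaling of the array as a whole. The mean of the replication-dependent genes minus that of the replacement variants, each gene relative to its own mean over the arrays, was -0.13 and 0.07 in WT in water, -0.10 and 0.10 in WT under ABA, 0.11 and 0.33 in OE in water and -0.10 and -0.24 in OE under ABA. The 2 arrays of OE in water were the highest of the 8 and the group mean was 0.22, against -0.03 in WT in water, 0 in WT under ABA and -0.17 in OE under ABA, but the lower of them, at 0.11, lay next to an array of WT under ABA at 0.10, and the spread between arrays of a group was 0.138 (pooled SD). For H3, the difference between H3.1 and H3.3 was -0.59 and -0.50 in WT in water, -0.35 and -0.04 in WT under ABA, 0.43 and 0.70 in OE in water and 0.44 and -0.08 in OE under ABA. Both arrays of OE in water lay far above both of WT in water and the arrays of OE under ABA were far apart. For H2A, the difference between canonical H2A and H2A.Z ran the other way: 0.02 and 0.33 in WT in water, 0.35 and 0.16 in WT under ABA, -0.18 and -0.03 in OE in water and -0.47 and -0.17 in OE under ABA. No test was run on these differences, since they are scores over genes listed with results in view.

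**Figure D5:**
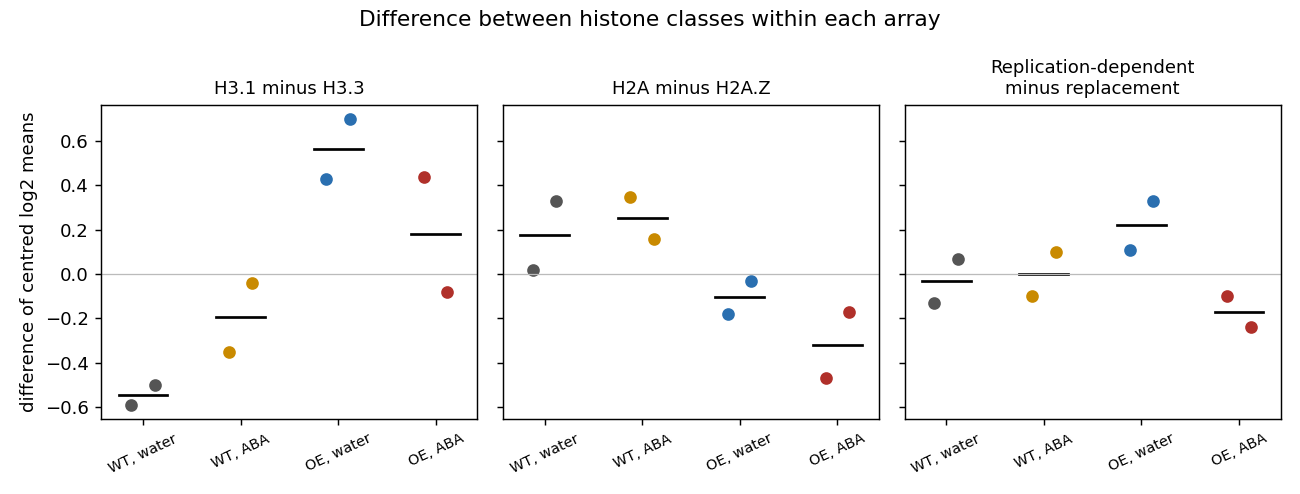
Difference between class means of centred log2 signal within each array (y axis) for H3.1 and H3.3, canonical H2A and H2A.Z, and all replication-dependent genes and replacement variants, by group (x axis). Points are arrays and bars are group means. H3.1 minus H3.3 is between -0.59 and -0.50 in WT in water and between 0.43 and 0.70 in OE in water, and H2A minus H2A.Z is negative on all 4 OE arrays and positive on all 4 WT arrays.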

How the data were processed

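The authors deposited each array's scanner output (Agilent Feature Extraction 10.7.3.1), whose intensity values are background-subtracted within the array, and a table of log2 values that matched quantile-normalized signals of the same 8 arrays. The methods name MAS 5.0, which does not settle a scaling for these arrays. Main values were log2 processed signals, without spots flagged as outliers, minus each array's 75th percentile. A probe was kept where some group had it well above background on its 2 arrays, which left 31264 of 43603, and these were fitted in R 4.3.3 with limma 3.58.1 as 4 group means, with 4 residual and 1.99 prior degrees of freedom, and p-values were Benjamini-Hochberg adjusted over all of them. Probe accessions were matched to locus tags through the RefSeq gene table of TAIR10.1, and 17 of the 40 genes had several probes. For 208 probes the name differed between the 2 design versions, 0 of them of histone genes. Replicate numbers did not pair the arrays (r of deviations from -0.18 to 0.11). The fit was tested on simulated data. No sequence was used here.

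All 40 genes could be named; full values were given to up to 4 genes that rose and 4 that fell most among those called in each comparison, to every replacement variant and to a gene at the median of its class, and genes of other lists were counted. AT1G75600, HTR11, HTR12 and the further genes given with values were picked after the values were seen. The genes and lists were chosen with earlier results of these data known. Alternatives changed the normalization, background correction, filter, arrays in the fit, blocks, threshold, test and probe choice. The scanner files hold median and not mean foreground signals, so the normexp alternative used the median. With 2 arrays a group, the number of arrays limits the precision.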

Additional observations from a re-analysis of the deposited data

Results flagged for a closer look

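For 9 of 40 histone genes, both ABA arrays lay above both water arrays in WT and below them in OE, a pattern that 3.53% of all probes tested showed. The interaction, on the log2 scale, was -1.05 for H1.2 (AT2G30620), -0.96 for HTA6, -0.95 for HTA10, -0.53 for HTA2, -1.11 for RAT5, -0.57 for HTB9, -0.39 for HTB4, -0.87 for the H3.1 gene AT1G09200 and -0.89 for HIS4. For 6 genes, both OE arrays lay above both WT arrays in water and below them under ABA, which 1.35% of all probes tested did. These were RAT5 and HTB9 again, with HTB1 (-1.24), AT2G37470 (-0.89), AT3G09480 (-1.65) and HTB11 (-0.53). RAT5 is read by 1 probe, and its interaction was 0.14 under normexp background correction. The pattern depended on the probe: the second probes of HTB1 and AT2G37470 gave log2 fold changes of OE against WT under ABA of 0.19 and 0.12, with both OE arrays above both WT arrays, and the second probe of HTB11 and 1 of the dimmer probes of HTB9 had overlapping arrays there. In the first pattern, the second probe of H1.2 gave the same order of arrays, and the dimmer probes of HTB4, HTB9 and AT1G09200 did not. Of these genes 0 had an interaction with an adjusted p under 0.05 (limma), so the difference between the groups is not shown by the test. All arrays of a genotype shared a scan day, but in WT the slides differed between ABA and water, so slide and ABA cannot be told apart there.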

How the results depend on the processing

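Of 396 recomputed counts, medians and class differences, 351 kept their value within the tolerance (1.5 times for counts, 1 SD between arrays otherwise) and 45 did not. Of the single-gene values, 3607 kept their side of the threshold, 61 lost a call and 16 gained one, and 0 called values changed sign. OE against WT in water had 14 genes higher, of which 14 were kept under quantile normalization and with the deposited table and 11 under normexp. With no minimum fold 23 were higher, by the methods' t-test 4, and 0 after adjustment, and leaving out 1 array gave 3 to 17. The count of 1 gene lower (AT5G02570) was 0 with the deposited table, normexp, no filter, only the 2 groups and the replicate block. It was also 0 with only probes above background on all arrays and by both forms of the methods' t-test, where the outcome was fixed. The probe of AT5G02570 lacks a value on 1 array, so that filter removes it and the t-test gives no value. Under ABA, with no minimum fold, 1 gene was higher (HTA10) and 1 lower (RAT5, at 0.38 under normexp). The cause of the other changes was not tested.

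The median log2 fold change of the replacement variants in water was 0.26 under quantile normalization, 0.45 under normexp and 0.50 with only probes above background on all arrays. Under ABA it was 0.21 under normexp. For ABA against water in WT it was 0.26 with the deposited table and 0.27 over all probes, and in OE 0.08 under quantile normalization, 0.07 with the deposited table and -0.20 under normexp. For the interaction it was -0.32 under normexp. Normexp, run on median signals, moved the median of all probes to 0.35 under ABA, -0.11 for ABA in WT, 0.23 for ABA in OE and 0.33 for the interaction.

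Leaving out 1 array, the median of the replication-dependent genes ranged from 0.64 to 1.18 in water, 0.06 to 0.37 under ABA, 0.27 to 0.45 for ABA in WT, -0.59 to -0.11 for ABA in OE and -1.0 to -0.51 for the interaction. That of the replacement variants ranged from 0.33 to 0.46, 0.28 to 0.45, 0.12 to 0.24, -0.10 to 0.04 and -0.22 to -0.06. The lone array of a group was then assumed to vary like the other groups. The difference between both kinds, OE minus WT, stayed at 0.13 to 0.36 in water and at -0.27 to -0.07 under ABA.

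Replicate numbers are shared by the groups but did not pair the arrays, and with the replicate block 14 genes were higher in water and 0 under ABA. Crossing the numbers of WT under ABA, added after seeing the data, left 0 genes called for ABA in WT. With the slide as a random block (correlation -0.163) 14 genes were higher and 1 lower in water. Within 1 slide, only ABA against water in OE could be compared.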
